A study of Homo sapiens with 4 samples.

Results

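The spliceosomal U RNA genes and the 7SL and 7SK genes, together with the copies of them that are scattered over the genome, were examined in MDA-MB-231 cells with and without a miR-217 mimic. The genes were chosen by name and by level. A name had to begin with RNU and a digit, with RNVU or with RN7S, and the mean over the 4 libraries had to be at least 1 RPKM, a read count scaled by the length of the counted exons and by the reads of the library. Of 592 such names among the 32955 genes of the table, 71 were selected on this mean. They comprised 10 genes not named as pseudogenes and 61 copies named as pseudogenes, with a final P or, for 7SK, as RN7SKP and a number. The remaining 521 names lay below the threshold and are counted only in the family totals.

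MDA-MB-231 is an established human breast cancer cell line. Cells transfected with a mimic negative control (mimic NC) were compared with cells transfected with a miR-217 mimic, with 2 libraries numbered 1 and 2 in each group. The labels name a stranded mRNA library kit, TRIzol extraction and growth in DMEM with serum for both groups, and neither group carried another agent or allele. Nothing in the labels says that the libraries came from separate cultures or what their numbers mark, so the p-values measure only the spread between these libraries, which may be technical. The question for these genes was whether the noncoding RNAs of the splicing and secretion machinery differed between the groups.

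The U RNAs are short nuclear RNAs that form the core of the spliceosome. U1 pairs with the 5′ splice site, U2 with the branch point, and U4, U5 and U6 join as a tri-snRNP in which U6 takes part in catalysis. U11, U12, U4atac and U6atac do the same work on a minor class of introns, and U7 guides the 3′ end processing of replication-dependent histone mRNAs. 7SL is the RNA scaffold of the signal recognition particle, which brings ribosomes that make secreted proteins to the endoplasmic reticulum, and 7SK holds the elongation kinase P-TEFb inactive together with HEXIM1 and LARP7. The mature RNAs carry no poly(A) tail. Families such as U6, 7SL and 7SK have left many copies in the human genome, most of which are named as pseudogenes.

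Sequences of some of the genes that carry the results are shown first, from the GENCODE release 29 transcripts on GRCh38, to let a reader see how far the highest copies have drifted from a working U RNA. For U6 the capitals mark the ACAGAGA box, which pairs with the 5′ splice site. RNU6-395P, RNU6-1161P and RNU6-1053P were the U6 copies with the highest levels. RNU6-1161P and RNU6-1053P hold no ACAGAGA.
RNU6-395P, chr2:127845236-127845341, plus strand: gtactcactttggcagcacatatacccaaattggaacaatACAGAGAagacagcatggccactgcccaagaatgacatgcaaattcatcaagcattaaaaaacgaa
RNU6-1161P, chr22:45624531-45624632, minus strand: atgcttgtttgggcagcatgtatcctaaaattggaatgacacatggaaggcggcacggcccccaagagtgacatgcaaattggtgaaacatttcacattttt
RNU6-1053P, chr4:183705931-183706031, plus strand: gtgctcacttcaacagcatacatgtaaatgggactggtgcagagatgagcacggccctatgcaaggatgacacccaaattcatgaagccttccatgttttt

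For U1 the capitals mark ACTTACCTG, the stretch at the 5′ end that pairs with the 5′ splice site. RNU1-1 and its copy RNU1-72P are shown because both had lower reads with the miR-217 mimic.
RNU1-1, chr1:16514122-16514285, minus strand: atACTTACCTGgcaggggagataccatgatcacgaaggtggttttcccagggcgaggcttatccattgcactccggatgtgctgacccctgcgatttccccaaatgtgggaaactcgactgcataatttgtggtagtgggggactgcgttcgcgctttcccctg
RNU1-72P, chr7:129484504-129484656, plus strand: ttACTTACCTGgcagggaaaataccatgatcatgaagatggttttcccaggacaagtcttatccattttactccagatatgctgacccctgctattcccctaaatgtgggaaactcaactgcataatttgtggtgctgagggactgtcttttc
For U7 the capitals mark TTGTCTAG, part of the binding site for the special Sm ring of this particle. RNU7-1 is the working U7 gene and had the third highest level of all 71 genes.
RNU7-1, chr12:6943816-6943878, plus strand: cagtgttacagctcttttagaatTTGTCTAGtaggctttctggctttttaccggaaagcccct
RNU4-5P is shown because its level was high although it matched RNU4-1 over 66.7% of positions.
RNU4-5P, chr10:109869858-109869992, plus strand: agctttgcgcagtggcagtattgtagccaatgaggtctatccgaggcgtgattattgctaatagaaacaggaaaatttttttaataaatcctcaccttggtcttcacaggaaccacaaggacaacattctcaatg

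The 4 libraries held between 32635814 and 57933183 reads on genes, recovered from the deposited RPKM values, which were whole multiples of 1 read for 100% of the nonzero values. The 71 genes took 0.00662% to 0.00851% of these reads. Of the markers that the line is known to express, VIM was at 27.9 to 36.9 RPKM, CD44 at 13.5 to 26.0, KRT8 at 154 to 421 and KRT18 at 142 to 303. Of those known to be low in it, ESR1 reached at most 0.0756 RPKM and CDH1 at most 0.433, while EPCAM was at 3.90 to 7.41, and PGR was not analysed here. Of the markers of other cells, PTPRC was at 0.351 to 1.25 RPKM and PECAM1 at 0.0507 to 0.138. In bulk libraries such as these, fewer cells of a type and less RNA per cell cannot be told apart.

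The reads were concentrated in a few genes. A mean of at least 10 RPKM was found for 9 genes, which held 69.7% of the reads of the 71, while 39 lay between 1 and 2 RPKM. Mean reads per library were under 50 for 60 of the 71, and 30 had at least 10 reads in every library. A library with 0 reads was present for 6, where a count of 0 allows up to 3 reads. Just inside the threshold were RNU6-481P, RNU6-1266P and RNU6-1, with mean RPKM of 1.02, 1.02 and 1.04. Just outside were RNU6-62P, RN7SL608P and RN7SL130P, with 0.9903, 0.984 and 0.976.

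RN7SK, the working 7SK gene at chr6:52995620-52995950, had the highest mean of the 71 genes. It measured 41.8 and 58.2 RPKM in mimic NC libraries 1 and 2 and 44.4 and 57.02 in miR-217 mimic libraries 1 and 2. The groups overlapped, at 49.99 ± 11.6 (SD, n = 2) against 50.7 ± 8.93 (SD, n = 2), with both libraries numbered 2 above both numbered 1. On the log2(RPKM + 1) scale, on which all differences here are given and which understates those of low genes, the difference was 0.03 (SE 0.22, limma unadjusted p = 0.905), and its sign turned with the library left out, from -0.21 without mimic NC library 1 to 0.26 without mimic NC library 2.

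RN7SL2, at chr14:49862550-49862849, and RN7SL1 differ at 5 of their 300 positions, so reads could be split between them by the counting. RN7SL2 measured 31.0 and 42.5 RPKM with mimic NC and 38.9 and 63.5 with the miR-217 mimic. RN7SL1 measured 26.4 and 25.8 RPKM with mimic NC and 26.2 and 35.3 with the miR-217 mimic. For both genes the highest value was that of miR-217 mimic library 2, and the groups overlapped. The log2 differences were 0.44 (SE 0.29, limma unadjusted p = 0.190) for RN7SL2 and 0.22 (SE 0.18, limma unadjusted p = 0.277) for RN7SL1. Both values moved with the library left out. Without miR-217 mimic library 2 they were 0.097 and 0.0085. Without miR-217 mimic library 1 they were 0.79 (limma unadjusted p = 0.0194) and 0.42. Without mimic NC library 1 that of RN7SL2 was 0.22.

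RNU7-1 measured 34.2 and 73.4 RPKM with mimic NC and 25.6 and 41.8 with the miR-217 mimic. The lowest value was in a miR-217 mimic library and the highest in a mimic NC library, but the groups overlapped, and the log2 difference was -0.60 (SE 0.43, limma unadjusted p = 0.223). It was -0.063 without mimic NC library 2, -1.14 (limma unadjusted p = 0.0209) without mimic NC library 1, -0.26 without miR-217 mimic library 1 and -0.95 without miR-217 mimic library 2. All 63 bases of RNU7-1 lie in counted exons of C12orf57 on the same strand and of U47924.31 on the other. Those genes differed by -0.16 and -0.19 on the log2 scale, and their mean levels were 7.05 and 11.4 RPKM.

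The working genes of the major spliceosome were low in these libraries. The labels name an mRNA kit and the mature RNAs carry no poly(A) tail. The RPKM values therefore do not measure how much of these RNAs the cells held. RNU1-3, with the same sequence as RNU1-1, measured 2.53 and 3.09 RPKM with mimic NC and 2.51 and 2.62 with the miR-217 mimic, and RNU6-1 measured 0.645 and 1.18 against 1.75 and 0.573. The groups overlapped for both. RNVU1-14, a variant U1 gene, measured 2.00 and 0.257 RPKM with mimic NC and 2.06 and 0 with the miR-217 mimic, so that the level followed the library number and not the group. RNU2-2P, which carries a P in its name although it is known to make a working U2 RNA, measured 0.723 and 2.21 against 1.67 and 1.28 RPKM and lies wholly within an exon of WDR74. Of genes below the threshold, RNU4-2 reached a mean of 0.141 RPKM, RNU5A-1 0.192, RNU12 0.0574 and RNU4ATAC 0.210.

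Of the minor spliceosome genes, RNU11 measured 1.16 and 2.21 RPKM with mimic NC and 0.979 and 2.29 with the miR-217 mimic. RNU6ATAC measured 3.70 and 4.36 RPKM with mimic NC and 5.95 and 0.973 with the miR-217 mimic, with the miR-217 mimic libraries on either side of both mimic NC libraries. Neither gene passed the test between the groups (limma unadjusted p = 0.895 and 0.501), but RNU6ATAC was at -1.35 (limma unadjusted p = 0.000397) without miR-217 mimic library 1 and at 0.47 (limma unadjusted p = 0.0461) without miR-217 mimic library 2, the opposite direction.

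**Figure D1:**
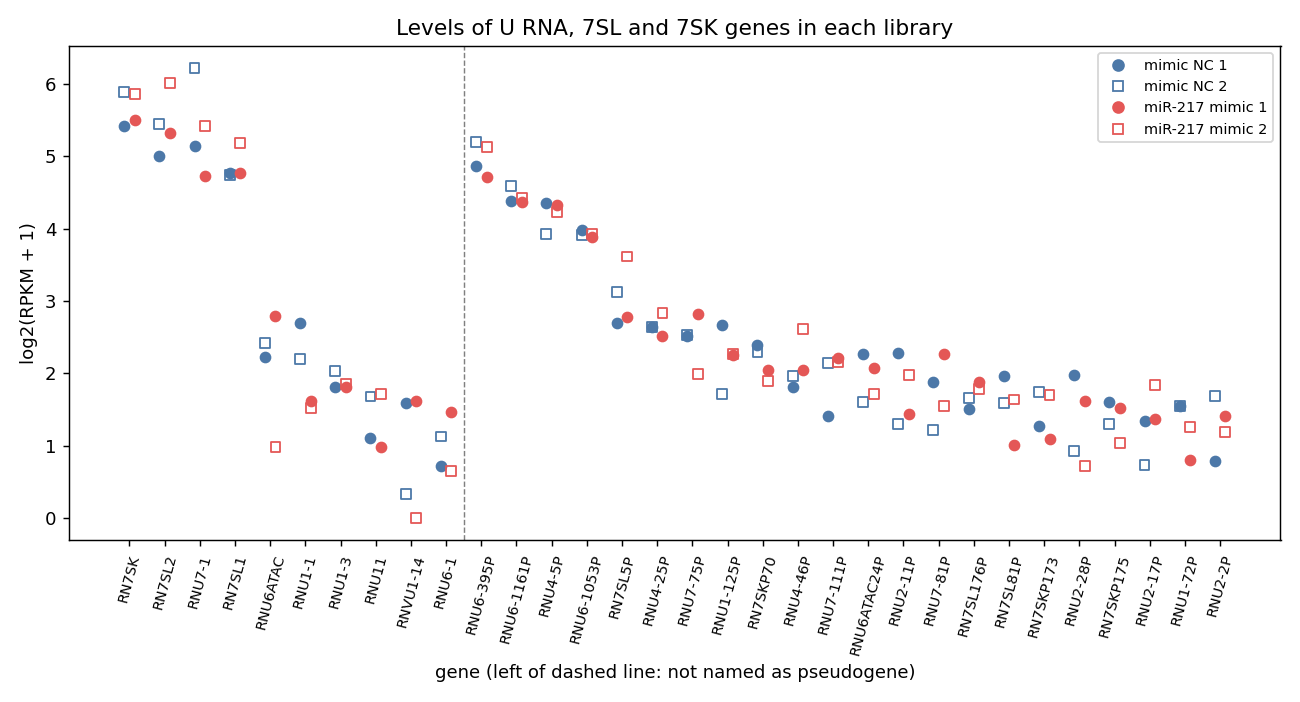
Level of the 10 genes not named as pseudogenes (left of the dashed line), of the 3 highest pseudogene copies of each family and of RNU2-2P, as log2(RPKM + 1) on the vertical axis; each symbol is 1 library, blue for mimic NC and red for the miR-217 mimic, filled for number 1 and open for number 2. RN7SK, RN7SL2, RNU7-1 and RN7SL1 stand far above the other working genes, and RNU6-395P, RNU6-1161P, RNU4-5P and RNU6-1053P stand above RNU1-1 and RNU6-1 in every library.

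Among the copies, RNU6-395P measured 28.2 and 35.8 RPKM with mimic NC and 25.3 and 34.1 with the miR-217 mimic. RNU6-1161P measured 19.8 and 23.2 against 19.7 and 20.4 RPKM, and RNU6-1053P 14.9 and 14.0 against 13.7 and 14.3. The RPKM of these copies was thus several times that of RNU6-1 in every library, and none passed the test between the groups (limma unadjusted p = 0.620, 0.522 and 0.734). RNU6-1 shares its sequence with 6 other annotated copies, so its reads may have been split or left out. RNU6-395P lies opposite an exon of POLR2D and may hold reads of that gene. The part of either in the ranking was not tested. RNU4-5P measured 19.4 and 14.2 against 19.2 and 17.7 RPKM (limma unadjusted p = 0.479). Of the other families, the highest copies were RN7SL5P at a mean of 7.59 RPKM, RNU7-75P at 4.63, RNU1-125P at 3.81, RN7SKP70 at 3.50, RNU6ATAC24P at 2.83 and RNU2-11P at 2.50.

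By RPKM, the highest copies were not those most like the working gene. Reads of a sequence shared by several names may have been split or left out, which limits this comparison. The 4 U6 copies of at least 10 RPKM, these 3 and RNU6-146P, matched RNU6-1 over 73.8% to 84.3% of positions, and RNU4-5P matched RNU4-1 over 66.7%. The 11 genes with the exact sequence of the gene that names their family had a median of 2.69 RPKM, with a range of 1.04 to 50.3, against 1.78 RPKM for the 55 genes under 95% identity, with a range of 1.02 to 30.9. The 61 copies had a median identity of 82.9%. Over all annotated GENCODE sequences the median identity to the naming gene was 81.3% for the 1277 of U6 and 79.6% for the 680 of 7SL.

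**Figure D2:**
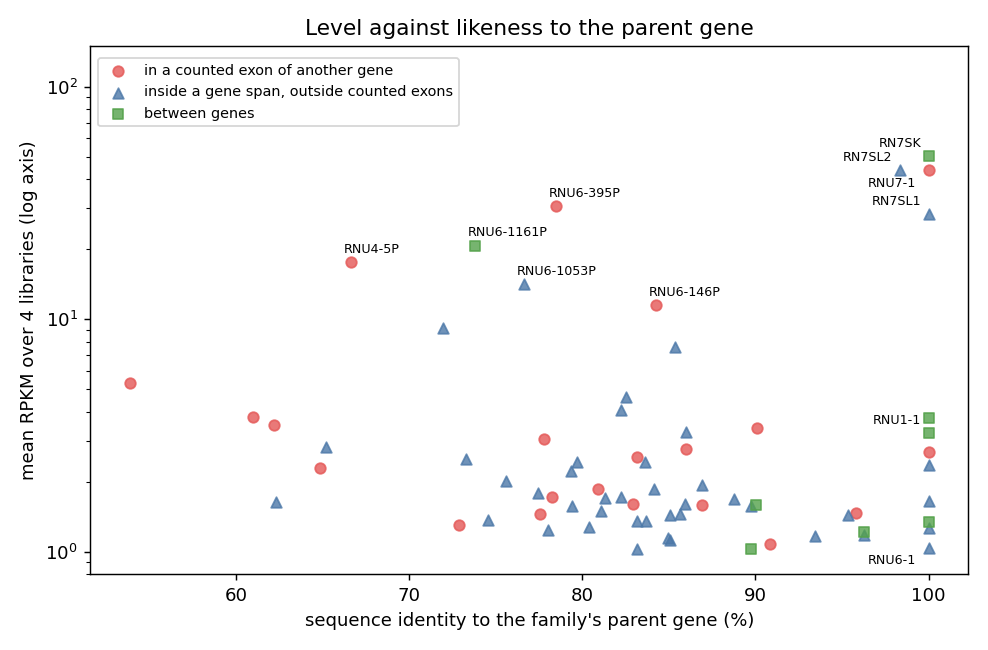
Mean RPKM over the 4 libraries (vertical, log axis) against sequence identity to the gene that names the family in percent (horizontal), 1 symbol for each of the 71 genes, coloured by position relative to other genes. RNU6-395P, RNU6-1161P, RNU4-5P, RNU6-1053P and RNU6-146P lie above 10 RPKM at identities of 66.7% to 84.3%, whereas RNU1-1 and RNU6-1 lie under 5 RPKM at 100%.

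The elements that the working RNAs use were searched for as exact letters on the transcript strand. ACAGAGA occurred in 20 of the 32 U6 genes, in 54.2% of all annotated U6 sequences and in 0.763% of the 1573 other transcripts of 94 to 110 bases. The U6 genes with the box had a median of 1.44 RPKM and those without it 1.58. ACTTACCTG occurred in 4 of the 5 U1 genes (0.568% of other transcripts of like length), GTAGTA, the branch point pairing stretch, in 2 of the 4 U2 genes (9.15%), and ATTTTTG, part of the Sm site of U4, in 2 of the 4 U4 genes (1.99%). TTGTCTAG occurred in 4 of the 6 U7 genes (1.93%), GCCGGGCG, from the start of the Alu domain of 7SL, in 3 of the 12 7SL genes (1.13%) and GATCTG, from the hairpin of 7SK that HEXIM1 binds, in 4 of the 5 7SK genes (8.47%). RNU4-5P, RNU6-1161P and RNU6-1053P held no match to the element of their family, while RNU6-395P did. A match is a run of letters and not evidence of function.

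Position relative to other genes was taken from the counted exons of the table and from GENCODE. Of the 71 genes, 21 overlapped a counted exon of another gene. By the overlapping gene of highest level, 13 of these overlaps were on the same strand and 8 on the opposite strand. RNU7-1, for example, overlaps counted exons on both strands. Another 42 lay within the span of a GENCODE gene but outside counted exons, and 8 lay between genes. RNU6-395P lies opposite an exon of POLR2D, whose level was 10.2 RPKM, so that the copy stood 3.04 times above the gene around it. RNU4-5P shares 40 bases with an exon of XPNPEP1 on the other strand and stood 5.19 times above it, and RNU6-146P lies in an exon of PRKX on the same strand and stood 7.79 times above it. Over the 21 genes the ratio of the RPKM to that of the overlapping gene ran from 0.0182 to 10.4, with a median of 0.834, and exceeded 1 for 8. RPKM divides by gene length, and a read that only partly overlaps a very short gene may still be counted for it. A ratio above 1 therefore does not show a separate transcript, which was not tested.

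Reads were counted for genes that lie inside an exon of another gene on either strand. In the whole table, 214 genes of at most 400 bases lay wholly inside an exon of a gene on the opposite strand, and 37 of these had at least 100 mean reads. The same held for 30 of the 211 such genes on the same strand. For the 21 genes that overlap an exon, reads of the RNA and reads of the transcript around it therefore cannot be told apart, and for those in introns the part of intron-containing transcripts in the reads was not tested. Within the 50000 bases searched on each side, RNU6-1161P and RN7SK lay between genes, with the nearest exon of an expressed gene 18910 and 5329 bases away.

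Identical copies cannot be separated by sequence. RNU6-1, RNU6-4P, RNU6-5P and RNU6-6P share 1 sequence, as do RNU1-1 and RNU1-3. How reads that match several places were counted is not given in the sources used here. The 7 names in the table with the sequence of RNU6-1 together held 54 and 34 reads in the mimic NC libraries and 82 and 8 in the miR-217 mimic libraries, 4.88% of all U6 reads. Scaled to 1000000 reads on genes (RPM), these were 0.932 and 0.718 against 1.54 and 0.245, so the miR-217 mimic libraries held both the highest and the lowest value.

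The recovered reads of these 7 names were even numbers. Of their 20 values between 1 and 20 reads, all 20 were even, against 30 of 74 such values (40.5%) in the U6 copies under 95% identity and 46.5% of 1692 in other genes of at most 110 bases. In genes over 1000 bases 76.1% of such values were even. Where both reads of a sequenced pair are counted, a pair that lies inside a gene adds an even number, and whether pairs were counted this way is not given in the sources used here. The intervals below treat each read as independent, cover counting error only and would be too narrow if reads were counted in pairs.

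Summed over every name, 7SL led in every library, with 7SK and U6 next. The groups overlapped for 7SL, 7SK, U7, U1, U2 and U6atac, and for U6 and U4 both miR-217 mimic libraries lay slightly above both mimic NC libraries. 7SL took 28.6 and 32.0 RPM with mimic NC and 31.0 and 42.7 with the miR-217 mimic, and RN7SL1 and RN7SL2 held 63.9% of these reads. 7SK took 18.6 and 24.1 against 19.2 and 23.7, with 77.4% in RN7SK. U6 took 18.9 and 18.6 against 19.2 and 19.8, and 46.5% of its reads came from the 5 highest copies. U4 took 4.54 and 3.88 against 4.82 and 4.69, U7 3.28 and 5.68 against 2.94 and 3.62, and U1 4.06 and 2.79 against 3.19 and 2.42. A read that falls on overlapping genes may be counted more than once in such a sum.

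**Figure D3:**
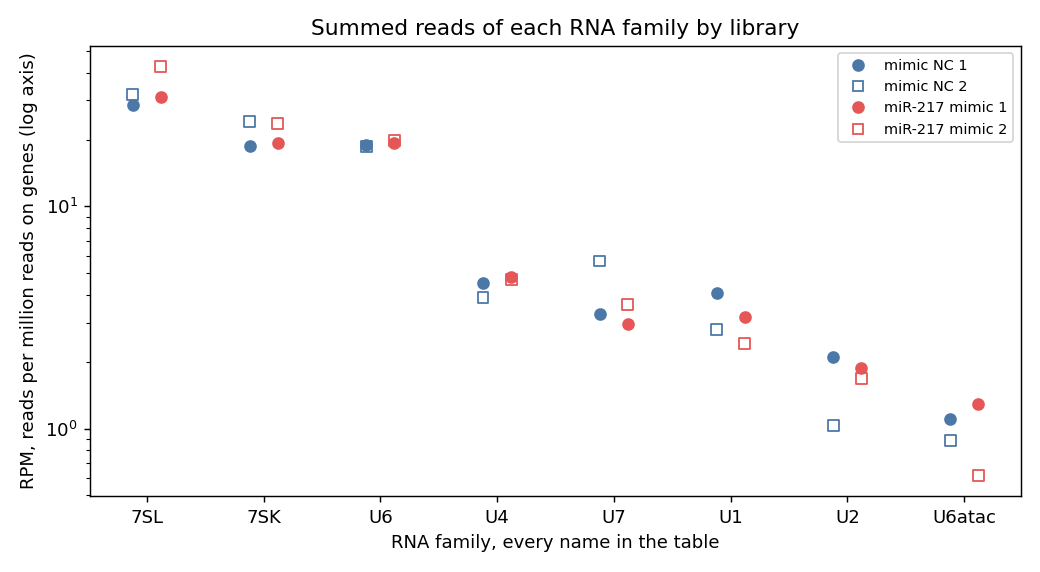
Reads per 1000000 reads on genes, or RPM (vertical, log axis) summed over every name of each family with at least 100 reads in all, with 1 symbol per library, blue for mimic NC and red for the miR-217 mimic, filled for number 1 and open for number 2. 7SL is highest and U6atac lowest in every library, and the groups overlap for every family shown except U6 and U4.

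No gene reached an adjusted p under 0.05 between the groups in limma, either among the 71, where the adjusted p was 1.00 for each, or among all 13871 genes with a mean of at least 1 RPKM (background 0.0%). At an unadjusted limma p under 0.05, 165 of the 13871 genes were called (1.19%), 67 higher and 98 lower, or 97 higher and 79 lower after median centring, and limma on the recovered reads gave no adjusted call among the 71 either. Of the 71, 7 were higher with the miR-217 mimic, against a background of 0.483% of all genes tested, and 5 were lower, against 0.707%. All 12 had fewer than 50 mean reads, and none of the 11 genes with at least 50 was called in this fit, which has no replicate block. Of the 438 other genes tested of at most 350 bases with under 50 mean reads, 51 (11.6%) were called in the same fit. With a replicate block, RN7SL2 and RNU7-1, both among the 11, had an unadjusted limma p under 0.05, but so did 7.54% of all genes tested. Of the 12, 6 had a mimic NC mean under 1 RPKM and so were among the 71 only through their level with the miR-217 mimic, which means that they had to differ, and no count over the 12 supports a difference.

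RNU1-1 was the only called gene not named as a pseudogene. It had 52 and 28 reads in the mimic NC libraries against 18 and 10 in the miR-217 mimic libraries, or 5.47 and 3.60 against 2.06 and 1.87 RPKM. Both miR-217 mimic libraries lay below both mimic NC libraries. The means were 4.54 ± 1.32 and 1.96 ± 0.133 RPKM (SD, n = 2), the log2 difference was -0.88 (SE 0.20, limma unadjusted p = 0.00723), and the ratio of pooled RPM was 0.429 (95% exact interval 0.268 to 0.667). RNU1-3, with the identical sequence, had 24 and 24 reads against 22 and 14 and a log2 difference of -0.09 (SE 0.13, limma unadjusted p = 0.522). Over the 5 names in the table with this sequence, the RPM values were 1.36 and 1.14 in the mimic NC libraries against 0.825 and 0.858 in the others. This sum includes RNU1-1 itself, so it is no separate evidence for a difference. It held 79 and 54 reads with mimic NC and 44 and 28 with the miR-217 mimic, of which RNU1-1 gave 52 and 28 and 18 and 10.

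The other 4 lower genes were copies. RNU6-834P, in an intron of PRPF40B, had 26 and 16 reads in the mimic NC libraries against 10 and 3 in the miR-217 mimic libraries (log2 difference -1.03, SE 0.24, limma unadjusted p = 0.00826). RNU1-72P, in an intron of STRIP2, had 17 and 14 reads against 6 and 7 (log2 difference -0.52, SE 0.19, limma unadjusted p = 0.0437). Both miR-217 mimic libraries were below both mimic NC libraries for each. RNU6-485P, which lies 8 bases from an exon of C1RL-AS1, had 30 and 24 reads against 19 and 12 (log2 difference -0.40, SE 0.11, limma unadjusted p = 0.0167). RN7SKP70 had 67 and 50 reads against 45 and 24 (log2 difference -0.38, SE 0.13, limma unadjusted p = 0.0313), and shares 161 bases with an exon of CLK4, a splicing-factor kinase, which differed by -0.18 (limma unadjusted p = 0.297). For RNU6-485P and RNU1-72P the interval of the pooled read ratio reached past 1, to 1.11 and 1.01.

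The 7 higher genes were copies, and 4 of them were U6 copies. RNU6-45P, at chr11:63970470-63970576, differs from RNU6-1 at 4 positions and lies between genes 4031 bases from COX8A. It had 0 and 1 reads in the mimic NC libraries against 12 and 9 in the miR-217 mimic libraries. Its ratio of pooled RPM was 25.7, with a 95% exact interval of 4.14 to 1064, and its log2 difference was 1.61 (SE 0.16, limma unadjusted p = 0.000212), the largest of the 71. RNU6-1266P had 3 and 0 reads against 12 and 5, a ratio of 6.94 (2.01 to 37.0). RNU6-118P, in an intron of STX5, had 1 and 4 reads against 11 and 7, a ratio of 4.41 (1.58 to 15.2). RNU6-850P had 7 and 2 reads against 11 and 9, a ratio of 2.72 (1.18 to 6.79). The unadjusted limma p-values of these last 3 were 0.00572, 0.00745 and 0.0156. In all 4 the miR-217 mimic libraries lay above the mimic NC libraries. All 4 had a mimic NC mean under 1 RPKM and were admitted only through the miR-217 mimic libraries. Their direction was thus fixed by the threshold, and their ratios, intervals and p-values do not support a difference.

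RN7SL381P, a 7SL copy in an intron of GSE1, had 16 and 14 reads in the mimic NC libraries against 31 and 19 in the miR-217 mimic libraries (log2 difference 0.59, SE 0.12, limma unadjusted p = 0.00429). RN7SKP269, a 7SK copy in an intron of NMNAT1, had 17 and 9 reads against 31 and 17 (log2 difference 0.64, SE 0.15, limma unadjusted p = 0.00846), while NMNAT1 itself differed by -0.05 (limma unadjusted p = 0.738). RNU7-123P had 3 and 5 reads against 7 and 8 (log2 difference 0.83, SE 0.31, limma unadjusted p = 0.0450), and the interval of its pooled read ratio, 0.914 to 6.25, includes 1. In RN7SKP269 the highest mimic NC count equalled the lowest miR-217 mimic count, 17 reads in libraries of different depth, and in RPM the groups did not overlap. RN7SL381P and RN7SKP269 had mimic NC means of 0.959 and 0.758 RPKM and were likewise admitted only through the miR-217 mimic libraries.

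**Figure D4:**
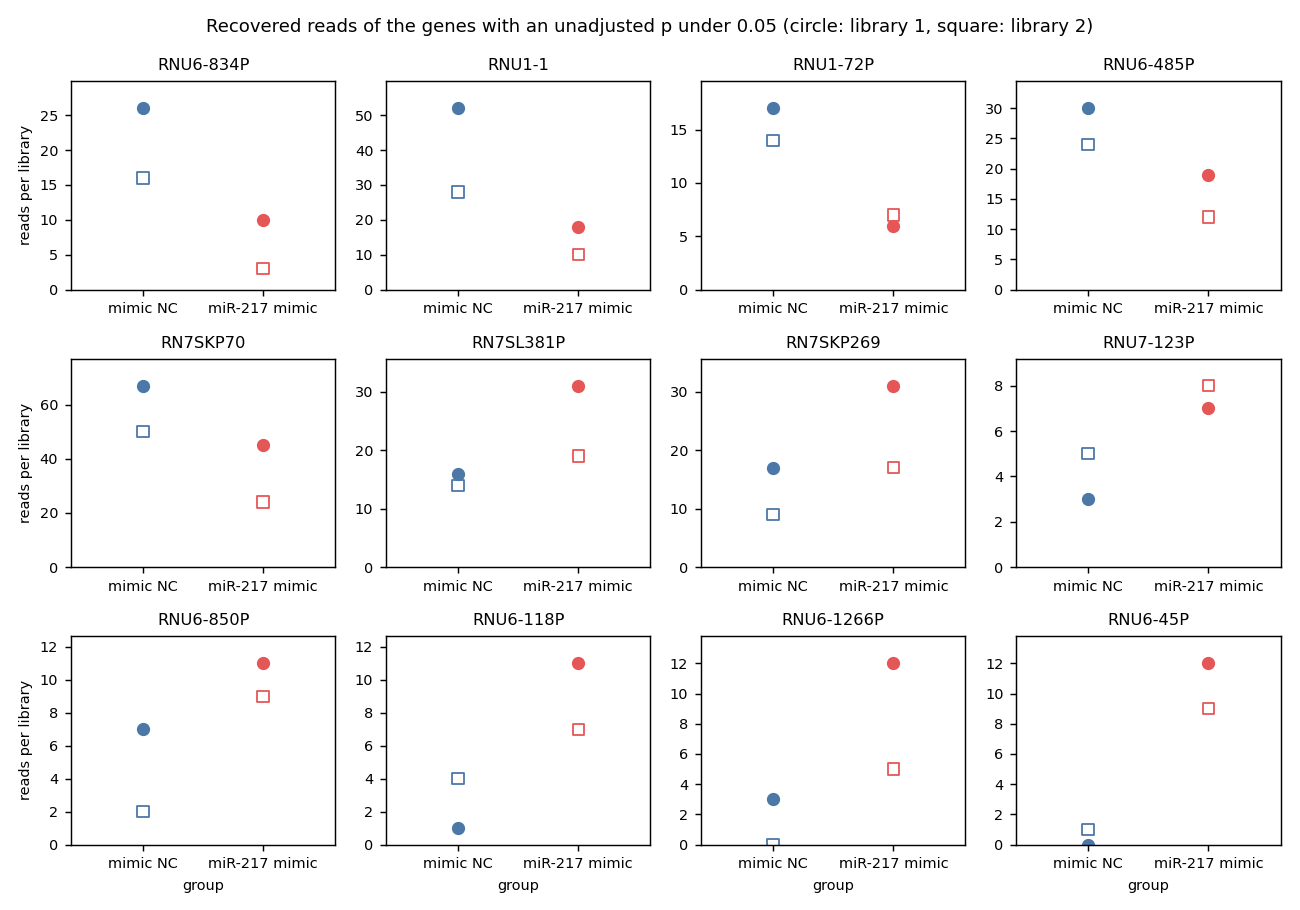
Recovered reads per library (vertical, from 0, on a scale of its own in each panel) in the mimic NC and miR-217 mimic groups for the 12 genes with an unadjusted limma p under 0.05, circles for library 1 and squares for library 2. RNU6-45P goes from 0 and 1 reads to 12 and 9, and RN7SKP70, the deepest of the 12, from 67 and 50 to 45 and 24.

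Both miR-217 mimic libraries were above both mimic NC libraries for 12 of the 71 genes (background 9.72%) and below them for 8 (13.5%), and the other 51 overlapped. The 6 called genes with a mimic NC mean under 1 RPKM were among the 12 above, and the threshold had fixed their direction. Of the 438 other genes tested of at most 350 bases with under 50 mean reads, 67 were above and 66 below. With 2 libraries in each group, a two-sided exact permutation test of a single gene cannot go below p = 0.333. The median log2 difference was -0.07 for the 10 genes not named as pseudogenes and 0.03 for the 61 copies, beside -0.02 for all genes tested. Of the 71, 11 had a mimic NC mean under 1 RPKM and 2 a miR-217 mimic mean under 1. The threshold thus admitted more genes through the miR-217 mimic libraries alone, which limits these medians. By family, the median was 0.06 for the 32 U6 genes, with 4 called higher and 2 lower, 0.04 for the 12 of 7SL with 1 higher, -0.12 for the 5 of 7SK with 1 each way, -0.15 for the 5 of U1 with 2 lower, and 0.12 for the 6 of U7 with 1 higher. Over all genes tested 0.483% were called higher and 0.707% lower. The U6, 7SL and 7SK genes called higher were admitted only through the miR-217 mimic libraries, which fixed their direction. None of the U2, U4, U11 and U6atac genes was called. Of the called genes, RN7SKP70 overlaps an exon of another gene, 8 lie in introns and 3 between genes, among them RNU6-45P and RNU6-1266P, which entered only through their level with the miR-217 mimic.

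**Figure D5:**
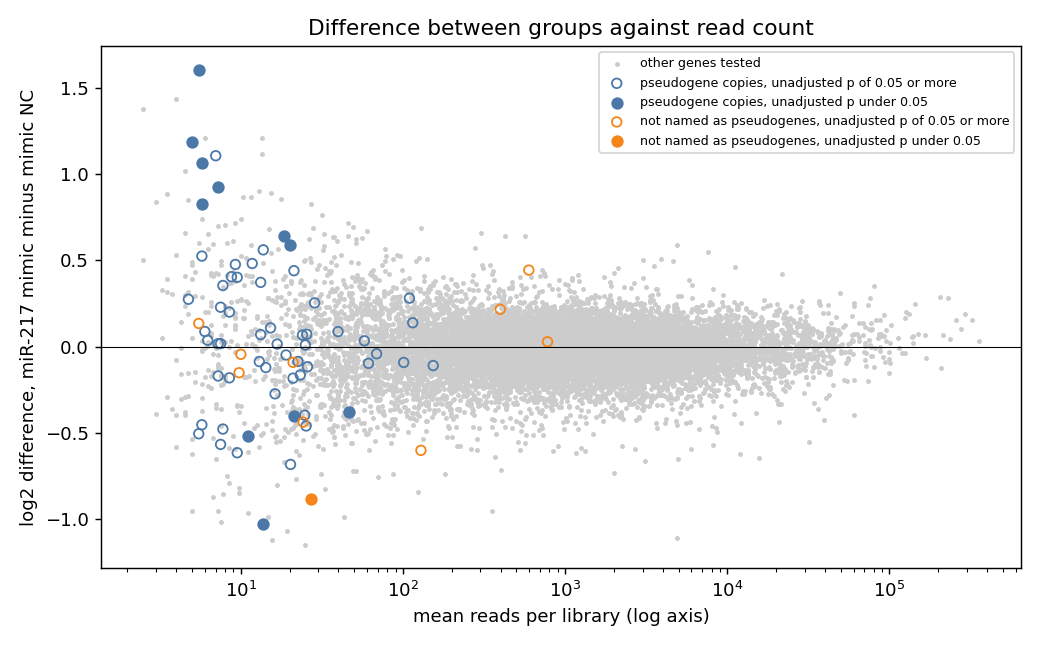
Log2 difference between the groups, miR-217 mimic minus mimic NC (vertical), against mean reads per library (horizontal, log axis) for all 13871 genes tested in grey and the 71 genes in colour, filled where the unadjusted limma p was under 0.05. The filled symbols all lie under 50 mean reads, where grey genes also spread widest, and RN7SK, RN7SL1 and RN7SL2 at the right lie between 0.03 and 0.44.

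The library number separated the libraries more than the group did. With the group in the fit, 14 of the 71 genes were higher in the libraries numbered 2 at an unadjusted limma p under 0.05 (background 13.8%) and 14 were lower (19.6%). At an adjusted p under 0.05 there were 12 (8.38% of all genes), of which 8 were higher and 4 lower in number 2. The working genes among the 8 were RNU7-1 with a log2 difference of 0.88 (SE 0.11), RNU11 with 0.65 (SE 0.10), RN7SL2 with 0.57 (SE 0.09) and RN7SK with 0.41 (SE 0.07), at adjusted limma p-values of 0.0348, 0.0393, 0.0419 and 0.0477. RNU11 rested on 9 and 7 reads in the libraries numbered 1 and 14 and 10 in those numbered 2. At such counts the SE may understate the counting error. RNVU1-14 was the lowest at -1.43 (SE 0.13, limma adjusted p = 0.0232), from 19 and 18 reads in the libraries numbered 1 to 2 and 0 in those numbered 2. RNU6-4P, 1 of the copies identical to RNU6-1, fell by 0.89 (SE 0.12, limma adjusted p = 0.0359), from 20 and 20 reads to 8 and 4, with the same limit.

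Within each number, the difference between the groups can be read from single libraries. For RN7SK it was 0.08 on the log2 scale in number 1 and -0.03 in number 2, and for RNU7-1 -0.41 and -0.80. For RN7SL2 it was 0.32 and 0.57, and for RN7SL1 -0.01 and 0.44. RNU1-1 was lower in both, by -1.08 and -0.68, and RNU6-45P higher in both, by 1.63 and 1.58. The threshold on the mean admitted RNU6-45P only through the miR-217 mimic libraries, so its agreement between the numbers is no sign of stability. RNU6ATAC moved in opposite ways, by 0.57 and -1.44.

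The protein genes of the particles in which these RNAs work were called about as often as other genes. Of 125 listed genes, 122 were tested, 1 (0.82%, beside 1.19% of all genes tested) was higher with the miR-217 mimic at an unadjusted limma p under 0.05 and none was lower, and none passed after adjustment. The gene called was LSM5, a member of the Lsm ring on the 3′ end of U6, with 14.0 and 15.3 RPKM in the mimic NC libraries and 17.9 and 19.7 in the miR-217 mimic libraries (log2 difference 0.34, SE 0.13, limma unadjusted p = 0.0465). It was not called without mimic NC library 1 or without mimic NC library 2, and 0 partner genes then were. The median of the 122 was 0.03. The largest differences upward were those of SNAPC1, a subunit of the complex that binds U RNA promoters, at 0.43 (SE 0.24, limma unadjusted p = 0.135), LSM5, and POLR3G, a subunit of RNA polymerase III, at 0.30 (SE 0.16, limma unadjusted p = 0.121). Those downward were SNAPC2 at -0.25 (SE 0.22, limma unadjusted p = 0.309), HEXIM1, which inhibits P-TEFb on 7SK, at -0.21 (SE 0.19, limma unadjusted p = 0.334) and BDP1, a subunit of the polymerase III factor TFIIIB, at -0.21 (SE 0.17, limma unadjusted p = 0.284).

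By particle, the 7 genes of the Sm ring had a median log2 difference of 0.11 and the 11 of U2 0.07, with no call in either. The 8 genes of the signal recognition particle had a median of -0.02 and lay between -0.09 and 0.20. Of the 7 genes of the 7SK particle 1 was positive, with a median of -0.08 and a range of -0.21 to 0.05, and none was called. The 19 genes of transcription of these RNAs had a median of 0.05 and the widest range, -0.25 to 0.43.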

How the data were processed

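RNA-seq of MDA-MB-231 cells in 2 groups of 2 libraries was analysed. The deposited table holds RPKM values, which the authors made, per the submitters' processing notes, with Trimmomatic 0.36, featureCounts of Subread 1.5.1 and edgeR 3.12.1 on hg38. The aligner, annotation, strand setting and treatment of reads that match several places are not given in the sources used here. Columns were joined to samples by name. Whole reads were recovered from the RPKM steps and gene lengths (tolerance 0.05 reads), giving 32635814 to 57933183 reads per library. Those 13871 genes whose RPKM averaged 1 or more were tested with limma 3.58.1 (R 4.3.3; lmFit, eBayes with trend, two-sided) on log2(RPKM + 1), with Benjamini-Hochberg adjustment over all of them. The scripts were tested on simulated data. Intervals of read ratios are conditional exact binomial ones at 95%. Results were recomputed without the filter, with a filter of 5 RPKM, with a pseudocount of 0.1, after median centring, with a replicate block, by voom on recovered reads and leaving out each library. Sequences were read from GENCODE release 29 transcripts, since a genome was not used here, matched by name and position for all 71 genes, and compared with edlib. The members and lists were chosen with earlier results of these data known. Named were genes not called pseudogenes, RNU2-2P, the 3 highest copies per family, genes with an unadjusted p under 0.05, the 3 on each side of the threshold, partner genes called or with the 3 highest or lowest differences, and cell markers. RNU6-146P, the copies identical to RNU6-1 and the genes around a member were named after their values were seen, and so was the count of even reads. Some sequences are not reported here.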

Additional observations from a re-analysis of the deposited data

How the results depend on the processing

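Each count and median, and the log2 difference of each named gene, was recomputed under every alternative. The adjusted count stayed at 0 in all of them. With a filter of 5 RPKM, which kept 12 of the 71 genes, 0 were higher and 0 lower with the miR-217 mimic, and 6 were higher and 1 lower in number 2. With voom on recovered reads 2 were lower with the miR-217 mimic (background 0.404%), and 5 were higher and 5 lower in number 2. Higher with the miR-217 mimic under voom were RNU6-45P, RNU6-1266P, RNU6-118P, RN7SKP269 and RN7SL381P (background 0.187%). With the replicate block, 13 genes were higher, 10 lower and 5 partner genes were called, but so were 7.54% of all genes tested, against 1.19% without it. Under the block the unadjusted limma p-value was 0.00648 for RN7SL2 and 0.00533 for RNU7-1, which were not called without it. Leaving out 1 library gave 7 to 18 higher genes and 3 to 9 lower genes, the highest without miR-217 mimic library 1, where 6.24% of all genes tested were called, and the lowest without mimic NC library 2. It gave 0 to 2 partner genes, 0 without either mimic NC library and 2 without miR-217 mimic library 1. The median of the copies ran from 0.018 to 0.17 on the log2 scale, the highest without mimic NC library 1. A lone library was assumed to vary like those of the other group. The comparison of numbers has no leave-one-out fit, for want of residual degrees of freedom, and no block of its own. The deviations of same-numbered libraries correlated at 0.680 over all genes and the first component, with 71.3% of the variance, separated the numbers, but with 2 numbers and no label for what they mark the libraries were not treated as paired. All 12 called genes kept their direction in each of 9 alternatives that gave a value. RNU6-834P and RNU1-1 stayed under 0.05 in all 9. So did RNU6-45P, RNU6-1266P, RNU6-118P and RN7SL381P, and RNU6-850P and RN7SKP269 in 8, but the threshold on the mean admitted these 6 only through the miR-217 mimic libraries and so fixed their direction, which makes this no sign of stability. RNU1-72P stayed under 0.05 in 2, RNU6-485P in 4, and RN7SKP70 and RNU7-123P in 5 each. On the log2 scale RNU1-72P was at -0.28 without miR-217 mimic library 1, RNU7-123P at 0.49 without miR-217 mimic library 2 and 0.55 without mimic NC library 1, and RNU6-850P at 0.61 without mimic NC library 2. RNU6-485P lost its call without any 1 of the 4 libraries. RNU6ATAC, not called with all 4, ran from -1.35 without miR-217 mimic library 1 to 0.47 without miR-217 mimic library 2, past the threshold in opposite directions. The cause of these changes was not tested, other than fewer genes or libraries where the alternative removes them. Depth limits most of these genes, 60 of 71 having under 50 mean reads.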
